A study of Mus musculus with 8 samples.

Results

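The macrophage genes are 35 genes whose RNA marks macrophages or serves their growth, identity and uptake functions. They were chosen by name: the rows of the deposited expression table that carry a member's gene name. All 35 were found among the 55933 genes of the table. The choice by name uses no measured value, but the list was drawn up with earlier results of these data known. Differences were tested for 15143 genes with a mean of at least 0.5 FPKM (fragments per kilobase, a level corrected for gene length and library depth), and 33 of the 35 members were among them. Siglec1 and Trem2 fell under that limit.

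At pregnancy day 14.5, mammary epithelium was taken from 4 control and 4 cKO mice, and each mouse gave 1 RNA-seq library. In the cKO mice (K14-rtTA;teto-Cre;Bmpr1a fl/fl), doxycycline in the drinking water switches on Cre under the K14 promoter, which removes the BMP receptor gene Bmpr1a from myoepithelial cells. The controls were littermates that the labels call WT, and their exact genotype and whether they also drank doxycycline are not given in the sources used here. All mice were female and on a C57BL/6 background. Glands were digested with collagenase and hyaluronidase and red cells were lysed, but no cells were sorted, so leukocytes of the gland were not removed.

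Macrophages grow and survive on the cytokine CSF1, which signals through the receptor CSF1R, and their identity depends on the transcription factor PU.1. They clear dying cells and debris with complement, Fc and scavenger receptors and degrade what they take up with lysozymes and cathepsins. In the mammary gland, macrophages lie around ducts and alveoli and are known to take part in branching, in alveolar development during pregnancy and in clearance at involution, and epithelial cells are themselves a source of CSF1.

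Between 16123108 and 19896988 reads lay on genes in each library. Bmpr1a, the targeted gene, had 10.1 ± 1.28 (SD, n = 4) FPKM in the control against 11.2 ± 1.01 (SD, n = 4) FPKM in the cKO libraries and was not lower in the latter (exact permutation test, two-sided, p = 0.257; limma adjusted p = 0.56), so each direction below rests on the labels. This is a value for the whole preparation, of which the myoepithelial cells are a part. The 6 markers of luminal epithelium summed to 4582 to 6033 FPKM per library and the 6 of myoepithelium to 1487 to 2162 FPKM, while the 34 macrophage genes other than Csf1 summed to 277 to 609 FPKM. Csf1r, Adgre1, Cd68 and the C1q genes were detected in each library, and Trem2, also on the list, had at most 1 read.

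2 libraries stood apart over the macrophage genes. Over the 32 tested members other than Csf1, cKO replicate 3 was the lowest library for 29 genes and control replicate 1 the highest for 20. Their median deviation from the mean of the 8 libraries, on the log2(FPKM + 1) scale, was -0.55 in cKO replicate 3 and 0.40 in control replicate 1, while the other controls lay at 0.00 to 0.14 and the other cKO libraries at -0.10 to 0.03. The count of lower genes and most genes described singly are therefore given with and without both libraries. Both were picked as extremes of these same values, so leaving them out was bound to pull most fold changes towards 0. Such values describe the weight of these libraries and are no independent check.

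**Figure D1:**
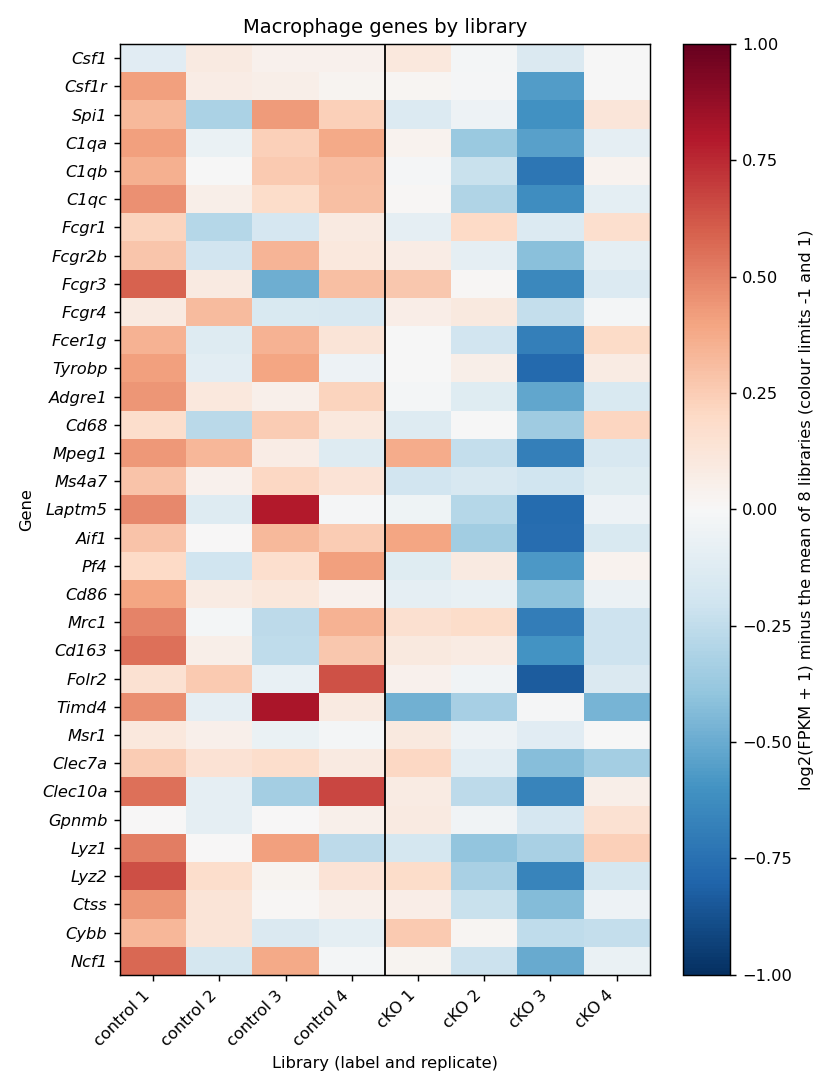
Level of each tested macrophage gene (rows) in each library (columns) as log2(FPKM + 1) minus the mean of the 8 libraries, with red above and blue below that mean. Control replicate 1 is mostly red, and cKO replicate 3 is blue for nearly every gene.

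The question set by the design is how these genes differed between control and cKO epithelium. Most had lower means in cKO, and none passed after adjustment for the number of genes tested. The mean FPKM of C1qa, Adgre1 and Lyz2, for example, was 28.7, 30.3 and 28.4% lower. That of Csf1r, Cd68 and Csf1 was 19.7, 9.30 and 2.21% lower. The mean on the log2(FPKM + 1) scale was lower in cKO for 31 of the 33 members tested, where 49.8% of all genes tested were lower. The median log2 fold change was -0.33 over the members, with a range from -0.64 (Timd4) to 0.07 (Fcgr1), and 0.00 over all genes. In bulk RNA, fewer macrophages and less RNA per macrophage cannot be told apart.

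Of the 33 members, 12 were lower with an unadjusted p under 0.05 and 0 were higher (limma), against 7.53% of all genes tested lower and 8.85% higher. These were C1qa, C1qb, C1qc, Adgre1, Ms4a7, Laptm5, Cd86, Folr2, Timd4, Clec7a, Lyz2 and Ctss. After Benjamini-Hochberg adjustment over the 15143 genes, 0 members passed in either direction, where 0.304% of all genes were lower and 0.588% higher, and the smallest adjusted p of a member was 0.0954 for Ms4a7. The 4 control libraries lay above the 4 cKO libraries with no overlap for 5 members (Csf1r, C1qc, Adgre1, Ms4a7 and Cd86), and the opposite held for 0, against 4.60% and 6.10% of all genes. Within replicates 1 and 2 the median difference was -0.21, and 30 of 33 members were lower in cKO. Within replicates 3 and 4 it was -0.47, and 31 of 33 were lower.

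Without control replicate 1, 6 members had an unadjusted p under 0.05 and the median log2 fold change was -0.25, where 6.34% of all genes tested were lower at that p. Without cKO replicate 3, 7 members did, against 7.88% of all genes, and the median was -0.19. Without both, an alternative added after the values were seen, 4 of 33 members did (Adgre1, C1qc, Ms4a7 and Timd4), against 7.01% of all genes, 26 of 33 were lower, and the median was -0.13. Adgre1, C1qa, C1qc, Cd86, Ms4a7 and Timd4 were the 6 genes that stayed under 0.05 whichever 1 of the 8 libraries was left out. The share of all genes tested that did so was not counted, so this 6 has no background to be read against.

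**Figure D2:**
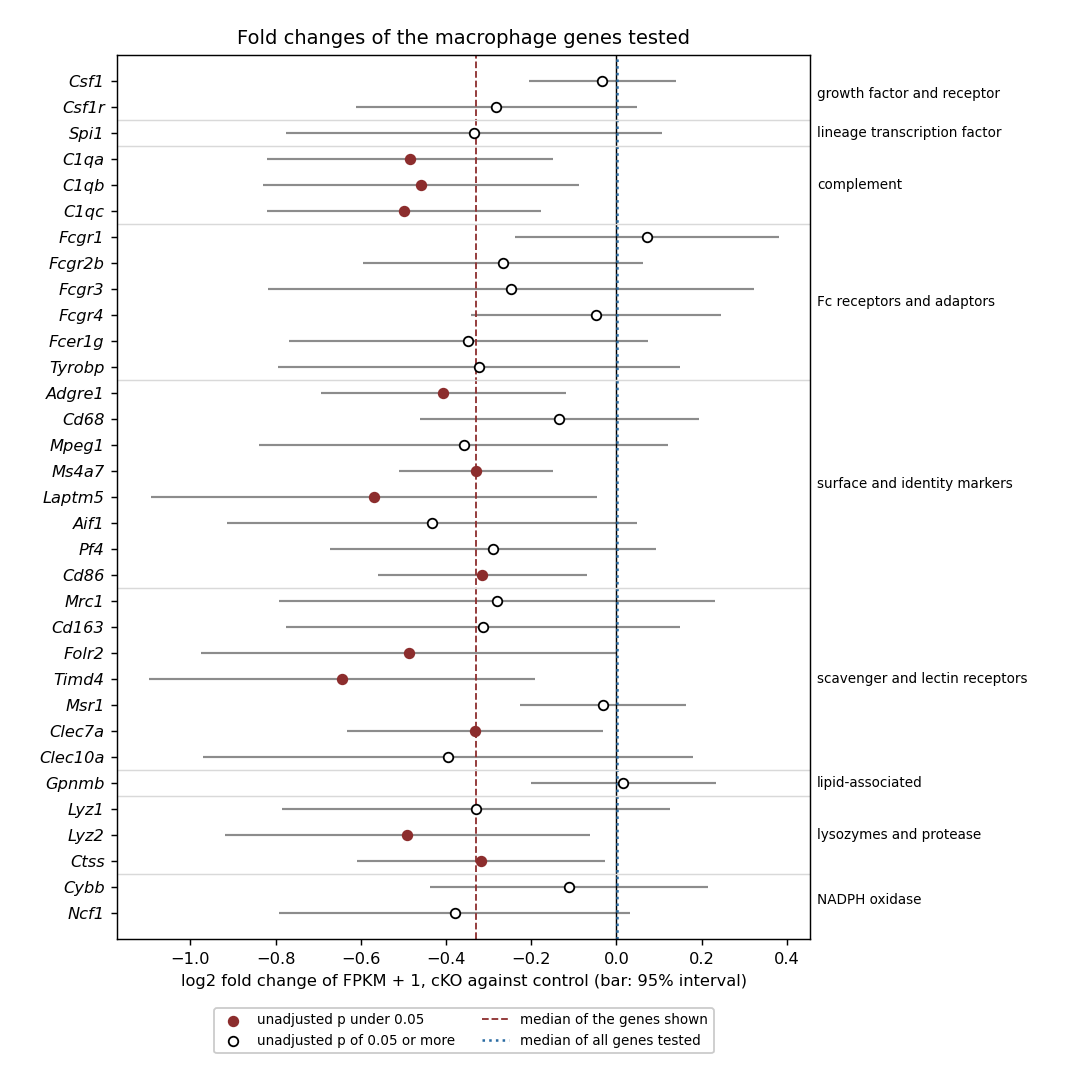
Log2 fold change of FPKM + 1, cKO against control, for the 33 macrophage genes tested, grouped by role, with 95% intervals from limma; filled points have an unadjusted p under 0.05 and the dashed and dotted lines are the medians of these genes and of all genes. All 12 filled points lie below 0, and the median of the genes shown is -0.33.

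The 35 genes are described by their roles below, and values are listed in the order of replicates 1 to 4 of each group. The growth factor and its receptor come first. Csf1 had 122, 141, 136 and 136 FPKM in control and 142, 130, 119 and 132 FPKM in cKO, so the groups overlapped throughout. Its log2 fold change was -0.03 ± 0.08 (SE), with an unadjusted p of 0.679 (limma, adjusted p = 0.873). At a mean of 132 FPKM it had one of the highest levels of the list, next to Lyz2, and its deviations from the group means had a median correlation of 0.20 with those of the other members over the 8 libraries.

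Csf1r, the receptor through which macrophages receive CSF1, had 8.19, 6.29, 6.22 and 6.07 FPKM in control and 6.03, 5.87, 3.7 and 5.9 FPKM in cKO. Every control library lay above every cKO library, but the groups nearly touched, and control replicate 1 and cKO replicate 3 held the extremes. Means were 6.69 ± 1.0 (SD, n = 4) against 5.37 ± 1.12 (SD, n = 4) (p = 0.0286 by a two-sided exact permutation test, which cannot go lower with 4 against 4). In limma the log2 fold change was -0.28 ± 0.15 (SE), and its p was 0.0851 unadjusted and 0.379 adjusted, while without both extreme libraries it was -0.05. An exon of Csf1r overlaps one of Hmgxb3 on the opposite strand, which had 758 to 989 reads per library against 339 to 820 for Csf1r. Strand-specific counting is not stated for these data.

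Spi1, which encodes PU.1, had 3.77, 2.06, 4.1 and 3.48 FPKM in control and 2.46, 2.68, 1.5 and 3.14 FPKM in cKO. Control replicate 2 lay below 3 of the 4 cKO libraries, so the groups overlapped (log2 fold change -0.34 ± 0.20 SE, limma unadjusted p = 0.12, adjusted p = 0.441). The log2 fold change of Spi1 was -0.19 without cKO replicate 3 and -0.14 without both libraries that stood apart.

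The complement genes had lower means in cKO, and all 3 had an unadjusted p under 0.05. C1qa, C1qb and C1qc encode the chains of C1q, which starts the classical complement pathway and which tissue macrophages make. They lie side by side on the minus strand of chromosome 4 (GRCm38), C1qb from 136880129 to 136886187, C1qc from 136889804 to 136893065 and C1qa from 136895917 to 136898803, with 3616 and 2851 bases between them. Stretches upstream of C1qb and C1qc are shown because these neighbours moved together from library to library. They are RefSeq sequences on GRCm38.p6, chosen after the values were seen, and run from upstream towards the start. Capitals mark the letters CTTCCTC, the reverse complement of GAGGAAG, a core that PU.1 is known to bind.
C1qb, chr4:136886201-136886450, minus strand: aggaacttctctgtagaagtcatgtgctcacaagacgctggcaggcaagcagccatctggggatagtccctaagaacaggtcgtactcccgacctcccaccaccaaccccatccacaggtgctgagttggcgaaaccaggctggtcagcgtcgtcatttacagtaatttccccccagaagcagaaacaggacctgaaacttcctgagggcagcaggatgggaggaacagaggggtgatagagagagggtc
C1qc, chr4:136893066-136893164, minus strand: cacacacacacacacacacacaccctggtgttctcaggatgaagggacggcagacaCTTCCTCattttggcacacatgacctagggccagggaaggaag
The match upstream of C1qc begins 194 bases before its RefSeq start. The printed C1qc stretch stops at the gene's start in the deposited table, which lies upstream of the RefSeq start. The window of C1qb holds no full match, though it holds the shorter letters gaggaa, which were not searched for. GAGGAAG on either strand was found in the 250 bases before the start of 8 of the 26 members in the RefSeq table (30.8%; C1qc, Fcgr1, Fcgr3, Fcgr4, Laptm5, Mrc1, Pf4 and Trem2) and of 3244 of its 27025 genes (12%). A match is a description of the letters and not a binding site, and C1qa was not among the 26.

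C1qa had 70.9, 50.7, 62.7 and 69.3 FPKM in control and 54.2, 40.9, 36 and 49.8 FPKM in cKO. Control replicate 2 was the lowest control library and cKO replicate 1 alone lay above it. Mean FPKM was 63.4 ± 9.2 (SD, n = 4) against 45.2 ± 8.31 (SD, n = 4), with a log2 fold change of -0.48 ± 0.15 (SE) and an unadjusted p of 0.00978 (limma, adjusted p = 0.157). C1qb had 67.1, 52.2, 62.8 and 65.1 FPKM in control and 51.9, 44.8, 31.4 and 53.7 FPKM in cKO, where cKO replicate 4 exceeded control replicate 2. Its log2 fold change was -0.46 ± 0.16 (SE), with an unadjusted p of 0.0209 (limma, adjusted p = 0.213), and the p was 0.0532 without control replicate 1.

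C1qc had 25.4, 19, 20.8 and 22.7 FPKM in control and 18.4, 14.6, 11.5 and 17 FPKM in cKO, and the groups did not overlap. On average C1qc stood at 22 ± 2.74 (SD, n = 4) against 15.4 ± 3.01 (SD, n = 4), with a log2 fold change of -0.50 ± 0.14 (SE) and an unadjusted p of 0.0066 (limma, adjusted p = 0.136). Without both libraries that stood apart it was -0.31, with an unadjusted p of 0.0243, while C1qa and C1qb then stood at -0.33 and -0.25 with p of 0.064 and 0.0627. The deviations of the 3 genes from their group means had correlations of 0.90 to 0.95 over the 8 libraries. The points share libraries, so this is a description.

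**Figure D3:**
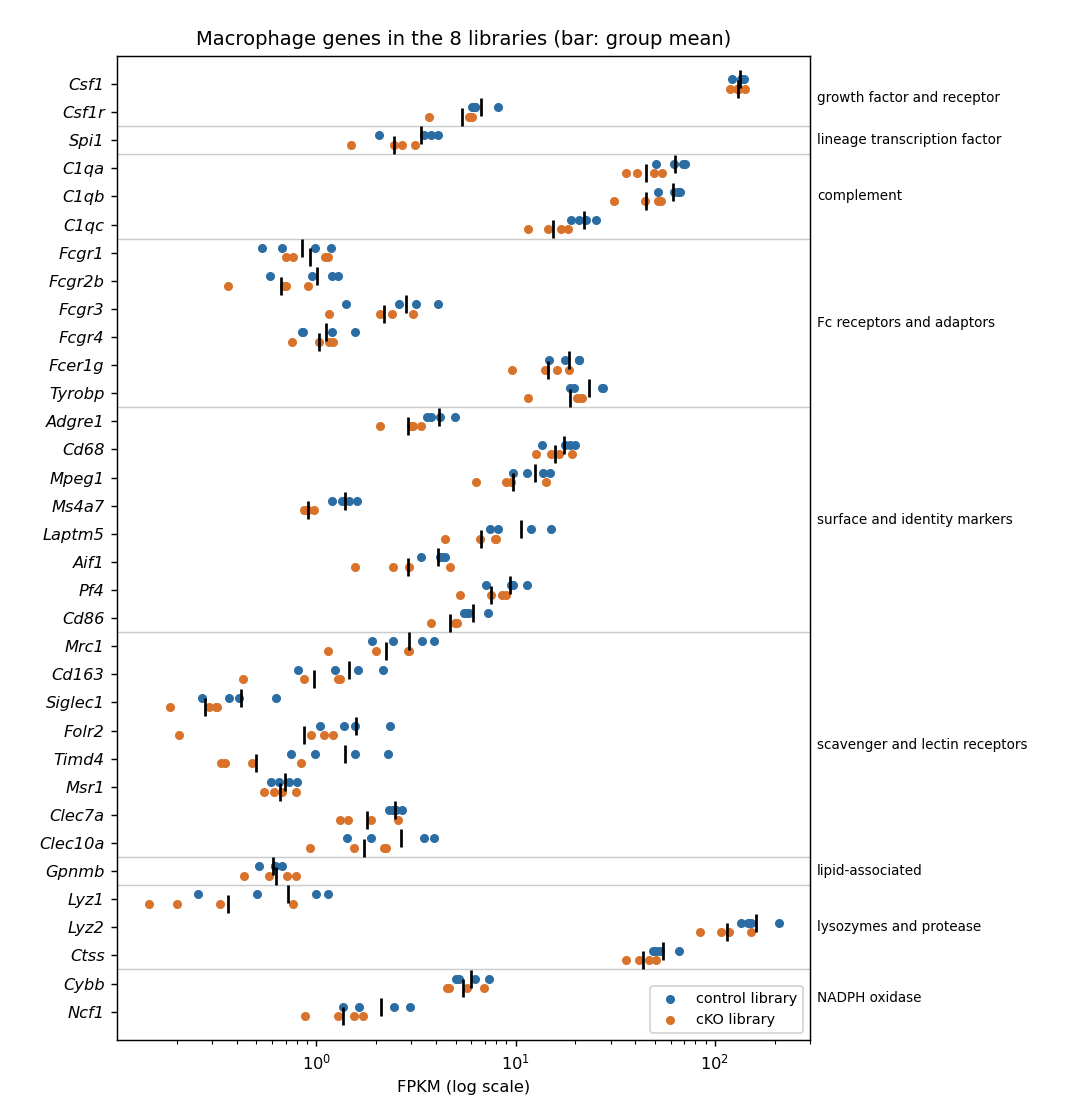
FPKM of 34 macrophage genes (all but Trem2) (log axis) in the 4 control (blue) and 4 cKO (orange) libraries, grouped by role, with bars at the group means. C1qc, Adgre1, Ms4a7, Cd86 and Csf1r show no overlap between the groups, while Csf1 sits at 119 to 142 FPKM in both.

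None of the 6 Fc receptor and adaptor genes had an unadjusted p under 0.05. Fcgr1, Fcgr3 and Fcgr4 encode activating receptors for IgG and Fcgr2b the inhibitory one, and they ranged from 0.359 to 4.09 FPKM over the libraries. Their log2 fold changes were 0.07, -0.25, -0.05 and -0.27 (unadjusted p = 0.612, 0.352, 0.721 and 0.1, limma, in the order Fcgr1, Fcgr3, Fcgr4 and Fcgr2b), and 0.21, 0.08, 0.04 and -0.12 without both libraries that stood apart. With all 8 libraries, Fcgr1 and Gpnmb were the 2 tested members whose mean was not lower in cKO. Fcgr2b, Fcgr4 and Fcgr3 lie together on chromosome 1 (GRCm38, from 170958617 to 171064935), and the transcripts of Fcgr2b and Fcgr3 are 96.5% identical over 509 aligned bases, so reads may be split between them.

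The signalling adaptors were more abundant than the receptors. Fcer1g, the common gamma chain of Fc receptors, had 14.7 to 20.8 FPKM in control and 9.65 to 18.5 FPKM in cKO (log2 fold change -0.35, limma unadjusted p = 0.0944). Without cKO replicate 3 the log2 fold change of Fcer1g was -0.18, and without both libraries that stood apart it was -0.12. Tyrobp, the adaptor DAP12, had 18.9 to 27.4 FPKM in control, against 11.5 FPKM in cKO replicate 3 and 20.3 to 21.6 FPKM in the other cKO libraries. Its log2 fold change was -0.32 (limma, unadjusted p = 0.157), and -0.04 without both libraries that stood apart. The deviations of Fcer1g and Tyrobp from their group means had a correlation of 0.92 over the 8 libraries.

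All 8 genes for surface and identity markers had a lower mean in cKO, and 4 of them had an unadjusted p under 0.05. Adgre1 (chromosome 17, 57358691 to 57483527), which encodes the classical mouse macrophage antigen F4/80, had 4.99, 3.74, 3.58 and 4.16 FPKM in control and 3.36, 3.07, 2.08 and 2.98 FPKM in cKO. The groups did not overlap. Mean FPKM was 4.12 ± 0.631 (SD, n = 4) against 2.87 ± 0.552 (SD, n = 4). Its log2 fold change was -0.41 ± 0.13 (SE), with an unadjusted p of 0.0109 (limma, adjusted p = 0.166). It was -0.22 without both libraries that stood apart, with an unadjusted p of 0.0379.

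Ms4a7 (chromosome 19, 11321039 to 11336146), a membrane-spanning protein of resident macrophages, had the smallest p of the list. It had 1.59, 1.19, 1.46 and 1.34 FPKM in control and 0.872, 0.912, 0.863 and 0.967 FPKM in cKO, and neither of the libraries that stood apart was far from the rest of its group. Its mean was 1.4 ± 0.171 (SD, n = 4) against 0.904 ± 0.0476 (SD, n = 4), from 61 to 123 reads per library. The log2 fold change was -0.33 ± 0.08 (SE), with an unadjusted p of 0.00258, and -0.28 without both libraries.

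Cd86 (chromosome 16, 36603869 to 36666081), a ligand that gives T cells a second signal and which dendritic and B cells also carry, had 7.3, 5.71, 5.82 and 5.5 FPKM in control and 4.94, 5.02, 3.77 and 5.06 FPKM in cKO. The groups did not overlap, but control replicate 1 and cKO replicate 3 lay well apart from the rest of their groups. The log2 fold change was -0.31 ± 0.11 (SE), with an unadjusted p of 0.0174 (limma, adjusted p = 0.198). Without both libraries it was -0.15, with an unadjusted p of 0.0638. Laptm5, a lysosomal membrane protein of lymphocytes and myeloid cells, had 11.9, 7.42, 15 and 8.17 FPKM in control and 7.96, 6.59, 4.42 and 7.93 FPKM in cKO. Its highest library was control replicate 3. Here the log2 fold change was -0.57 ± 0.23 (SE), with an unadjusted p of 0.0361 (limma, adjusted p = 0.266), and the p was 0.0864, 0.0933, 0.0645 and 0.0964 without control replicate 1, control replicate 3, cKO replicate 2 and cKO replicate 3. Without both libraries that stood apart the log2 fold change of Laptm5 was -0.34 (limma, unadjusted p = 0.193).

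Cd68, an endosomal and lysosomal glycoprotein used to stain macrophages, had 18.7, 13.5, 19.8 and 17.8 FPKM in control and 15, 16.4, 12.6 and 19.3 FPKM in cKO. The groups overlapped, and cKO replicate 4 exceeded 3 of the 4 controls. Cd68 had a log2 fold change of -0.13 ± 0.14 (SE; limma, unadjusted p = 0.378), with a 95% interval from -0.46 to 0.19. The other 3 genes were Mpeg1, which encodes a pore-forming protein, Aif1, which encodes the actin-binding protein IBA1, and the chemokine gene Pf4. Their log2 fold changes were -0.36, -0.43 and -0.29 (limma, unadjusted p = 0.125, 0.0724 and 0.121), and -0.10, -0.23 and -0.13 without both libraries that stood apart, where that of Cd68 was 0.00.

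Of the 8 scavenger and lectin receptors, 7 were tested and all 7 had a lower mean in cKO, 3 with an unadjusted p under 0.05. Mrc1, the mannose receptor, had 3.89, 2.43, 1.89 and 3.4 FPKM in control and 2.87, 2.93, 1.15 and 2.0 FPKM in cKO. Cd163, which takes up haemoglobin bound to haptoglobin, had 2.17, 1.25, 0.809 and 1.61 FPKM in control and 1.31, 1.29, 0.427 and 0.868 FPKM in cKO. The groups overlapped for both genes, and control replicate 1 and cKO replicate 3 were the highest and lowest library of each. Their log2 fold changes were -0.28 ± 0.23 and -0.31 ± 0.20 (SE; limma, unadjusted p = 0.247 and 0.16). Without both libraries that stood apart they were 0.02 and -0.03. The pair moved almost as 1 between libraries, with a correlation of 0.99 of their deviations from the group means over the 8 libraries.

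Timd4 (chromosome 11, 46810800 to 46844332), a receptor for phosphatidylserine on dying cells, had the largest fold change of the list and an order of libraries unlike that of most members. It had 1.57, 0.744, 2.28 and 0.981 FPKM in control and 0.334, 0.474, 0.84 and 0.347 FPKM in cKO, from 14 to 83 reads per library. Control replicate 3 was the highest, cKO replicate 3 was the highest of its group, and control replicate 2 lay below it. Group means came to 1.39 ± 0.685 (SD, n = 4) against 0.499 ± 0.236 (SD, n = 4), with a log2 fold change of -0.64 ± 0.20 (SE) and an unadjusted p of 0.0107 (limma, adjusted p = 0.165). Without both libraries that stood apart it was -0.70. Its deviations had a median correlation of -0.23 with those of the other members and of -0.47 with those of Cd163 over the 8 libraries.

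Folr2, folate receptor beta, had 1.38, 1.57, 1.04 and 2.34 FPKM in control and 1.21, 1.1, 0.204 and 0.94 FPKM in cKO. These values came from only 5 to 68 reads per library, with the lowest in cKO replicate 3, and an exon overlaps the opposite-strand gene Gm10602 with 9 to 20 reads. The log2 fold change was -0.49 ± 0.22 (SE), with an unadjusted p of 0.0499 (limma, adjusted p = 0.305), and the p was 0.0295 to 0.134 when 1 library was left out, under 0.05 only without control replicate 3, cKO replicate 1 or cKO replicate 2. Clec7a, the beta-glucan receptor Dectin-1, had 2.69, 2.43, 2.51 and 2.3 FPKM in control and 2.57, 1.88, 1.31 and 1.45 FPKM in cKO. Only cKO replicate 1 reached the control range. Its log2 fold change was -0.33 ± 0.13 (SE), with an unadjusted p of 0.0337 (limma, adjusted p = 0.257), and the p was 0.00172 to 0.0902 when 1 library was left out, under 0.05 only without control replicate 4, cKO replicate 1 or cKO replicate 2. Without both libraries that stood apart Folr2 was at -0.32 and Clec7a at -0.22 on the log2 scale (limma, unadjusted p = 0.12 and 0.172).

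The remaining receptors had p-values over 0.05. Clec10a, a lectin for galactose, ranged from 1.42 to 3.88 FPKM in control and from 0.934 to 2.23 FPKM in cKO (log2 fold change -0.40, limma unadjusted p = 0.154, and -0.12 without both libraries). Msr1, a scavenger receptor for modified lipoproteins, had means of 0.692 and 0.655 FPKM (log2 fold change -0.03, 95% interval from -0.23 to 0.16). Siglec1, a receptor for sialic acid, had means of 0.418 and 0.276 FPKM from 21 to 78 reads (exact permutation test, two-sided, p = 0.143).

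The lipid-associated genes were low. Trem2, a lipid receptor of macrophages in lipid-rich settings, was at 0 reads in 5 libraries and 1 read in the other 3, so no difference was detectable at this depth, where a count of 0 allows up to 3 reads. Gpnmb, a lysosomal glycoprotein, had means of 0.607 and 0.630 FPKM (log2 fold change 0.02, 95% interval from -0.20 to 0.23, limma unadjusted p = 0.866).

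Lyz2, the lysozyme of macrophages and neutrophils, was the most abundant member. It had 210, 152, 136 and 147 FPKM in control and 152, 107, 84.2 and 118 FPKM in cKO. The groups overlapped where cKO replicate 1 exceeded 3 of the 4 controls. Its mean was 161 ± 32.8 (SD, n = 4) in control against 115 ± 28.3 (SD, n = 4) in cKO, with a log2 fold change of -0.49 ± 0.19 (SE) and an unadjusted p of 0.0293 (limma, adjusted p = 0.244). The p was 0.0792, 0.0645 and 0.0767 without control replicate 1, cKO replicate 2 and cKO replicate 3, and without both libraries that stood apart the log2 fold change of Lyz2 was -0.22 (limma, unadjusted p = 0.157). Lyz1, its neighbour on chromosome 10 (GRCm38, Lyz2 from 117277331 to 117282321 and Lyz1 from 117287797 to 117292868), had 3 to 25 reads per library. The transcripts are 96% identical over 1262 aligned bases, so the split of reads between them is uncertain.

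Ctss, cathepsin S, a protease that processes antigen, had 66.3, 53.3, 49 and 50.5 FPKM in control and 50.9, 41.6, 35.8 and 46.9 FPKM in cKO. Control replicate 1 stood above all others and cKO replicate 1 reached the range of the other controls. The log2 fold change was -0.32 ± 0.13 (SE), with an unadjusted p of 0.0354 (limma, adjusted p = 0.263), and the p was 0.0951, 0.0561, 0.0774 and 0.0937 without control replicate 1, control replicate 2, cKO replicate 2 and cKO replicate 3. The log2 fold change of Ctss was -0.13 without both libraries that stood apart (limma, unadjusted p = 0.194). The genes for the NADPH oxidase that makes superoxide, Cybb for its catalytic subunit and Ncf1 for a cytosolic subunit, had log2 fold changes of -0.11 and -0.38 (limma, unadjusted p = 0.46 and 0.0669), and 0.05 and -0.15 without both libraries. An exon of Ncf1 overlaps the opposite-strand gene Gtf2ird2, which had 266 to 356 reads per library against 51 to 188 for Ncf1.

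Summed over the 34 members other than Csf1, the share of reads on genes was 0.104, 0.0779, 0.0795 and 0.0787% in control and 0.0763, 0.0619, 0.0441 and 0.0617% in cKO. On this share every cKO library lay below every control library. On summed FPKM the groups overlapped, since cKO replicate 1 had 458 FPKM and control replicate 2 had 450 FPKM. Markers of other cells of the gland were summed in the same libraries. Beside the marker counts given here and below, 7.53% of all genes tested were lower and 8.85% higher in the main test. The 6 markers of all leukocytes summed to 21.3 to 46 FPKM in control and 14.7 to 26.6 FPKM in cKO, with 5 of 6 lower means and 1 unadjusted p under 0.05 (Itgb2, the shared integrin beta chain of leukocytes, log2 fold change -0.59, limma unadjusted p = 0.005). The median over the leukocyte markers was -0.49, and -0.58 to -0.28 when 1 library was left out. The count of lower leukocyte markers then reached 2 without cKO replicate 1 or 4, 3 without control replicate 2 and 4 without control replicate 4, and 1 marker was higher without cKO replicate 3 or without both libraries that stood apart. The 6 B cell markers summed to 14.2, 4.96, 30.4 and 2.85 FPKM in control and to 1.51 to 2.52 FPKM in cKO. Control replicates 1 and 3 carried most of that sum, as they did for the 6 T cell markers (15.3 and 26.9 FPKM against 8.98 and 9.91 FPKM in the other controls and 5.61 to 9.26 FPKM in cKO). Timd4 and Laptm5 were also highest in these control libraries. Of 4 tested markers each, 3 for B cells and 2 for T cells were lower in cKO at an unadjusted p under 0.05, with median log2 fold changes of -1.16 and -0.47. Without both libraries that stood apart the counts were 0 and 0 and the medians -0.99 and -0.44, with control replicate 3 still in the fit. Without control replicate 3 the counts were 3 and 1 and the medians -0.77 and -0.25, and over all fits that left out 1 library the counts ran from 1 to 4 and from 0 to 4. The part of lymphocytes in the values of Timd4, Laptm5 and Cd86 was not tested.

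The 6 fibroblast markers summed to 441 to 920 FPKM in control and 299 to 713 FPKM in cKO, and cKO replicate 3 was again the lowest library. All 6 fibroblast means were lower in cKO with 0 at an unadjusted p under 0.05, and their median log2 fold change was -0.33. That median was -0.52 to -0.13 when 1 library was left out, nearest to 0 without cKO replicate 3 (-0.13) and control replicate 4 (-0.16), and -0.24 without both libraries that stood apart. The 6 mast cell markers summed to 36.6 to 76.1 and 27.4 to 41.3 FPKM, and the 6 endothelial markers to 103 to 120 and 78.5 to 109 FPKM, with cKO replicate 3 lowest in both. Of 5 tested mast cell markers 4 had lower means and 0 an unadjusted p under 0.05 (median -0.51). Control replicate 4 alone had the mast cell sum of 76.1 FPKM, the other controls had 36.6 to 38.1 FPKM, and without it the median was -0.16. The mast cell count was 1 without control replicate 1 and 2 without control replicate 2. All 6 endothelial means were lower (median -0.19), and Pecam1 and Emcn, surface proteins of vessel lining cells, had log2 fold changes of -0.29 and -0.31 (limma, unadjusted p = 0.0354 and 0.0399). The endothelial count was 4 without cKO replicate 1, 2 without control replicate 4, 1 without cKO replicate 2 and 0 without any other single library or without both, and the median was -0.32 without cKO replicate 1 and -0.12 without cKO replicate 3.

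The milk genes moved the other way, with 5 of 6 higher in cKO at an unadjusted p under 0.05 and sums of 4038 to 5910 FPKM in control and 8973 to 16023 FPKM in cKO. Monocyte markers summed to 699 to 855 and 704 to 798 FPKM, nearly all of it from Cd14, dendritic cell markers to 7.15 to 9.32 and 4.92 to 7.51 FPKM, and neutrophil markers to 160 to 188 and 169 to 235 FPKM, carried by S100a8. All 4 tested monocyte markers (median -0.21) and all 3 tested dendritic cell markers (median -0.19) had lower means in cKO. Among the former, Cd14 stood at -0.005 (limma, unadjusted p = 0.961). The monocyte markers Ccr2 and Cx3cr1 fell under the limit for testing. Ccr2 had means of 0.434 in control and 0.344 FPKM in cKO, and Cx3cr1 had 0.214 and 0.326 FPKM. The monocyte median was -0.32 to -0.065 when 1 library was left out, nearest to 0 without cKO replicate 3, and -0.085 without both libraries that stood apart. Ly6c2, of inflammatory monocytes, had means of 1.33 and 0.416 FPKM with no overlap (log2 fold change -0.62, limma unadjusted p = 0.0432), but its p was up to 0.0858 when 1 library was left out. Cd209a, a lectin of dendritic cells, had means of 1.19 and 0.548 FPKM with no overlap (log2 fold change -0.51, limma unadjusted p = 0.00185), and its p was at most 0.00683 when 1 library was left out. Of 4 tested neutrophil markers, S100a8 was higher in cKO (log2 fold change 0.29, limma unadjusted p = 0.027) and S100a9 and Retnlg were lower (-0.55 and -0.41, limma unadjusted p = 0.012 and 0.0123), while Ly6g had means of 0 and 0.0137 FPKM. The p of S100a8 was 0.00179 to 0.0756 when 1 library was left out, over 0.05 without control replicate 4, cKO replicate 1, cKO replicate 3 or cKO replicate 4. Adipocyte markers summed to 78.7 to 122 and 102 to 137 FPKM, mostly from Fabp4. Of 4 tested adipocyte markers, 3 were higher in cKO at an unadjusted p under 0.05, Cidec from 0.386 to 1.56 FPKM (limma adjusted p = 0.0377), Cfd from 2.04 to 13.2 FPKM with no overlap and Adipoq from 0.303 to 1.25 FPKM. When 1 library was left out the adjusted p of Cidec was 0.0367 to 0.115 and the unadjusted p of Adipoq was 0.00223 to 0.0839. The adipocyte count was then 2 without control replicate 2, control replicate 4, cKO replicate 2 or cKO replicate 4, and 4 without control replicate 3. Red blood cell markers summed to 22.5 to 30.01 and 14.5 to 28 FPKM, and the haemoglobin genes Hba-a1 and Hba-a2 were lower in cKO (log2 fold change -0.50 and -0.38, limma unadjusted p = 0.0181 and 0.0405), a count that was 4 without cKO replicate 1 and 0 without cKO replicate 2, cKO replicate 4 or both libraries that stood apart, and 1 without control replicate 1, 3 or 4 or cKO replicate 3. Luminal and myoepithelial sums overlapped between the groups, and of the 6 myoepithelial markers Krt14 and Trp63 were lower in cKO (log2 fold change -0.39 and -0.42, limma unadjusted p = 0.0198 and 0.014). The p of Krt14 was up to 0.0599 when 1 library was left out. Elf5, a transcription factor of alveolar luminal cells, was higher in cKO, with means of 21.3 and 38.5 FPKM and no overlap (log2 fold change 0.82, limma unadjusted p = 0.000686, adjusted p = 0.0591). The part of cell makeup or of milk RNA in the lower macrophage values was not tested.

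**Figure D4:**
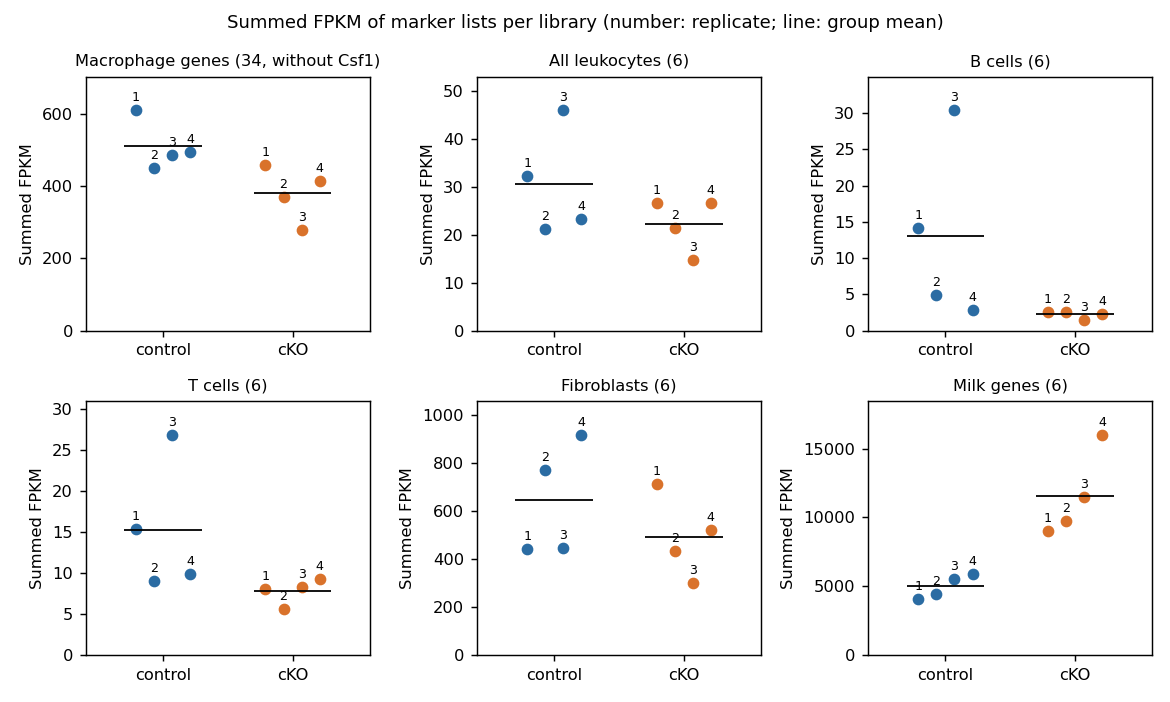
Summed FPKM of the macrophage genes other than Csf1 and of the markers of 5 other cell types or functions in each library, with the replicate number beside each point, blue for control, orange for cKO, and a line at the group mean. cKO replicate 3 is the lowest for macrophage, leukocyte, B cell and fibroblast genes, and the 4 cKO libraries exceed the 4 controls for milk genes.

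Genes that work beside the members were read from lists of their own. For the counts in these lists, 7.53% of all genes tested were lower and 8.85% higher at an unadjusted p under 0.05 in the main test. Of the 9 tested genes of the CSF1 axis and related myeloid growth factors, 1 was lower with an unadjusted p under 0.05 and 0 were higher. It was Csf2rb, the shared beta chain of cytokine receptors, at 6.9 and 5.02 FPKM (log2 fold change -0.41, limma unadjusted p = 0.017). Of 9 macrophage and myeloid transcription factors, 1 was lower and 0 were higher. Irf5, which drives inflammatory cytokine genes, had 9.46 to 11 FPKM in control and 6.76 to 8.54 FPKM in cKO with no overlap (log2 fold change -0.39, limma unadjusted p = 0.000843, adjusted p = 0.0624). The first count was 2 without control replicate 2 or 3 and the second 2 without cKO replicate 1 or 4.

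Of the 9 tested genes for phagocytosis and uptake of dying cells, 3 were higher and 3 lower in cKO at an unadjusted p under 0.05. Cd36, a receptor for oxidised lipids and a carrier of fatty acids that epithelial cells and adipocytes also make, had 72.2 to 81 FPKM in control and 127 to 174 FPKM in cKO (log2 fold change 0.93 ± 0.10, limma adjusted p = 0.0204). When 1 library was left out the adjusted p was 0.0114 to 0.0758, and over 0.05 without control replicate 1, 2 or 4. Mertk and Tyro3, receptor kinases that bind dying cells through bridging proteins, had log2 fold changes of 0.48 and 0.37 (limma, unadjusted p = 0.00202 and 0.00103), while Itgb2 had -0.59.

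Of 8 genes linked to inflammatory (M1) activation, 5 had an unadjusted p under 0.05, and all 5 were lower in cKO, against 7.53% of all genes tested. Il6, Il1b and Tnf had control means of 105, 72.4 and 63.2 FPKM, where Csf1r had 6.69 FPKM. Which cells of the unsorted preparation made this RNA was not tested. Nos2, the inducible nitric oxide synthase, had 30.4, 28.3, 18.2 and 27.5 FPKM in control and 14.7, 14.4, 14.3 and 12.5 FPKM in cKO. The groups did not overlap, with a log2 fold change of -0.83 ± 0.15 (limma, adjusted p = 0.0441), but when 1 library was left out the adjusted p was 0.0187 to 0.123, and under 0.05 only without control replicate 3. Il12b and Ptgs2 had log2 fold changes of -0.63 and -0.62 (limma, unadjusted p = 0.0141 and 0.0235), and cKO replicate 1 lay within or above the control range for both. Irf5 was also among the 5. The count was 3 without cKO replicate 2, 3 or 4, and 2 without both libraries that stood apart.

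Of 6 tested genes linked to alternative (M2) activation, 3 were lower and 0 were higher. These were Cd209f, a lectin, at 3.05 and 0.939 FPKM, the chemokine gene Ccl24 at 0.968 and 0.288 FPKM, and Retnla at 36.4 and 17.4 FPKM (limma, unadjusted p = 0.00554, 0.00474 and 0.0492). When 1 library was left out, the p of Retnla was 0.0262 to 0.131 and its log2 fold change -1.27 to -0.62, the smallest without cKO replicate 3. Ccl24 rested on 2 to 32 reads per library. By means alone, 8 of 8 tested M1-linked and 4 of 6 tested M2-linked genes were lower in cKO. Of 12 lysosome genes, 0 were lower and 2 were higher: Lipa, the acid lipase, at 18.3 and 29.5 FPKM, and Ctsb, cathepsin B, at 148 and 173 FPKM (limma, unadjusted p = 0.00922 and 0.0376). The count of higher genes was 1 without control replicate 1, control replicate 2, cKO replicate 1, cKO replicate 2 or cKO replicate 4 and 3 without cKO replicate 3, and the p of Ctsb was 0.0191 to 0.103 over the fits that left out 1 library.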

How the data were processed

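The data are 8 RNA-seq libraries of mammary epithelium, 4 of control and 4 of cKO mice. Per the paper's methods, the authors mapped reads to GRCm38 with Hisat2 2.0.5 and checked them with FastQC 0.11.5. The submitters' processing notes also list mm9, StringTie 1.3.3b and featureCounts 1.5.0-p3. The deposited values are FPKM per gene. GENCODE vM21 holds 55394 of the gene IDs, 99.7% of them at identical coordinates, all 35 members included, so the build is GRCm38.

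FPKM times gene length was a whole multiple of 1 step per library for 100% of values (tolerance 0.01 read), which gave the reads, and the steps show that the authors scaled the libraries by median-of-ratios size factors. Reads cover counting error only, and with 4 mice per group the number of mice limits the precision. Tests used limma 3.58.1 (R 4.3.3) on log2(FPKM + 1), with empirical Bayes and trend, two-sided, and Benjamini-Hochberg adjustment over the 15143 genes that averaged 0.5 FPKM or more. Fold changes on this scale understate those of low genes. Other steps used Python 3.11.15, pandas 2.3.3, numpy 2.4.6, scipy 1.17.1 and matplotlib 3.10.9, and the fit was tested on simulated data. With a fixed simulated spread between libraries, an adjusted p under 0.05 recovered 25.1% of 1.5-fold, 90.7% of 2-fold and 98.5% of 4-fold changes. Of the calls, 7.28% were false. Small changes can thus be missed. No pair of libraries of the same group agreed within sampling noise (chi-square per degree of freedom of at least 8.18). Pairs across the groups were not compared.

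The members and all gene lists were chosen with earlier results of these data known. Full values are given for members with an unadjusted p under 0.05, members without overlap and defining genes (Csf1, Csf1r, Adgre1, Cd68, C1qa, C1qb, C1qc, Mrc1, Cd163, Lyz2 and Spi1). Genes of other lists are named where their unadjusted p was under 0.05, at most 4 a list. The labels name C57BL/6 mice but no litters, and the p-values measure the spread between these mice. Alternatives were a pseudocount of 0.1, no filter, a mean FPKM of at least 1, TPM, library totals, the replicate number as a block, the sets of replicates 1 to 2 and 3 to 4 as a block, limma-voom on the reads, no trend, and each library left out.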

Additional observations from a re-analysis of the deposited data

Results flagged for a closer look

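In each group of 4 libraries, a gene's highest or lowest library was marked where its gap to the next library was too large a part of the group's range by Dixon's test at the 95% level. Over 70 groups this marked 5 libraries, where chance alone would mark about 3.5. Csf1r had 8.19 FPKM in control replicate 1, far above the other controls, and 3.70 FPKM in cKO replicate 3, far below the other cKO libraries. Tyrobp had 11.5 FPKM and Cd86 had 3.77 FPKM in cKO replicate 3, both far below the rest of the group. Trem2 had 0.0117 FPKM in control replicate 1, which is a single read where the other controls had 0.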

How the results depend on the processing

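No macrophage gene passed an adjusted p of 0.05 under any of the 18 alternatives, and the smallest adjusted p was 0.0614. The count with an unadjusted p under 0.05 and a lower level in cKO was 12 in the main test and 6 to 14 when 1 library was left out, with 6 without control replicate 1 and 7 without cKO replicate 3. It was 4 without both, an alternative chosen after seeing the data. The median log2 fold change ran from -0.38 to -0.19 when 1 library was left out. The count was 10 to 14 under the other pseudocount, filters, scalings, sets block, limma-voom and fit without trend. Folr2 was lost with the other pseudocount, without the filter and with a mean FPKM of at least 1. Scaling changed the balance over all genes: lower and higher calls at an unadjusted p under 0.05 went from 7.53 and 8.85% to 10.9 and 5.21% with TPM and 11.8 and 5.71% with library totals. Over all genes, the number with an adjusted p under 0.05 was 135 in the main test, 10 without the filter, 50 with the replicate block, 442 with the sets block, 252 with limma-voom and 0 to 78 when 1 library was left out.

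The sign turned in 14 of 588 values, in 8 genes, among them Mrc1 and Fcgr3, which were at -0.28 and -0.25 in the main test. When 1 library was left out, Csf1 ran from -0.075 to 0.010 (above 0 without cKO replicate 3), Fcgr1 from -0.012 to 0.16 (below 0 without control replicate 2), Fcgr4 from -0.11 to 0.049 (above 0 without control replicate 2 or cKO replicate 3) and Gpnmb from -0.031 to 0.076 (below 0 without control replicate 2, cKO replicate 1 or cKO replicate 4). Gpnmb came to -0.0063 with TPM and -0.0066 with library totals. Without both libraries, Fcgr3, Fcgr4, Mrc1, Msr1 and Cybb came to 0.082, 0.045, 0.022, 0.030 and 0.048. The cause was not tested.

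With the replicate block, 16 members had an unadjusted p under 0.05 and a lower level in cKO, 11 of them among the 12 (all but Laptm5), against 9.55% of all genes tested. The genes gained were Csf1r, Fcgr3, Mpeg1, Cd163 and Clec10a. With the sets block Folr2 and Laptm5 were lost. The block cannot change fold changes in this balanced design. Same-numbered libraries had correlations of 0.08 to 0.14 (mean 0.11) of their deviations from the group means, against 0.13 within the sets of replicates 1 and 2 or 3 and 4 and -0.12 across them, so the numbers were not taken to pair the mice. Depth limits Trem2, Lyz1, Fcgr4, Fcgr1, Folr2 and Siglec1, none of which exceeded 78 reads per library. It also limits Timd4, which had 14, 17, 29 and 14 reads in the cKO libraries and at most 83 in a control.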
